A study of Homo sapiens with 6 samples.

Results

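Clustered histone genes encode the linker histone H1 and the core histones H2A, H2B, H3 and H4, and lie in a few dense clusters in the human genome. Every gene of the deposited expression table whose symbol starts with HIST1H, HIST2H, HIST3H or HIST4H was taken, which gave 71 of 19475 gene symbols. They comprised 6 H1, 17 H2A, 18 H2B, 15 H3 and 15 H4 genes, of which 55 belong to HIST1, 12 to HIST2, 3 to HIST3 and 1 to HIST4. RNA was sequenced from MH7A, a line of rheumatoid arthritis synovial fibroblasts immortalised with a viral large T antigen, a protein that overrides normal cell cycle control. The TNF plus LED group comprised replicates 4, 6 and 10, given TNF-alpha at 10 ng/ml and 630 nm LED light for 15 min, 3 times. The TNF group comprised replicates 2, 8 and 14, given the same dose of TNF-alpha without light. All 6 libraries thus carried the cytokine, and no untreated, light-only or sham-exposed cells were part of the comparison. No label names separate cultures, so the p-values rest on a spread between samples that may be technical.

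Histone messengers are unusual among mRNAs. Most clustered genes are replication-dependent: they are transcribed in S phase, when new DNA has to be packaged, and their mRNA ends not in a poly(A) tail but in a conserved stem-loop bound by the stem-loop binding protein SLBP and cut with the help of the U7 small nuclear ribonucleoprotein. Some of these genes also make longer polyadenylated transcripts by reading past the stem-loop, above all in cells that have stopped dividing or are differentiating. Ribosomal RNA was removed here with probes and the remaining RNA was primed at random, so neither step selects for a poly(A) tail.

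The replication-dependent end is made at the stem-loop, so its letters are shown for some of the members below. The 16-letter motif searched was the conserved 6-base stem with its 4-base loop, with 3 bases left free, read in the sense direction of the GENCODE 29 transcripts. It was found in 31 of the 71 members (43.7%) and in 3 of 19137 other symbols of the table (0.0157%). The most frequent form, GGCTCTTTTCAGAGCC, occurred in 17 members, and another 5 carried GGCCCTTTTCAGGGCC. The lines below give at most 30 bases from 5′ to 3′, with the stem in capitals and the loop and flanks in lower case.
HIST2H2BE: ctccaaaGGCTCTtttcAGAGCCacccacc
HIST1H2AC: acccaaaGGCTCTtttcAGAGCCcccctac
HIST2H2AA3: ctcaaaaGGCTCTtttcAGAGCCacccacg
HIST2H2BF: ccccaaaGGCTCTtttcAGAGCCacttcag
HIST1H2BG: actcaaaGGCTCTtttcAGAGCCactcaag
HIST1H4H: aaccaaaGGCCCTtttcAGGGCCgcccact
HIST1H4E: aatcaaaGGCCCTtttcAGGGCCgcccaca
HIST1H2BD: tcccaaaGGCTCTtttaAGAGCCacgcatg
The H2A and H2B genes shown have a stem of the GGCTCT form, the H4 genes shown have the GGCCCT form, and the loop of HIST1H2BD ends in a rather than c. In the other 40 members, HIST1H3D and HIST1H2BK among them, the annotated sequence held no match. An annotated length that is a multiple of 3, as a coding sequence alone has, was found in 47 of the 71 members. Members with a stem-loop were among those 47, such as HIST2H2AA3 at 549 bases. The length therefore does not show which members lack untranslated ends. A missing match says only that these letters are not in the annotated sequence. In 21 members an annotated transcript runs 200 bases or more past the stem-loop, and in 16 of those 21 a transcript holds AATAAA or ATTAAA, the polyadenylation signal, in its last 60 bases.

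The promoter windows of the called gene, HIST1H3D, and of the 2 most abundant H2B genes are shown from RefSeq (GRCh38.p14), from 250 bases before to 50 after an annotated start. Capitals mark ATTTGCAT, the octamer bound by OCT1 in H2B promoters, TATAAA and CCAAT, on either strand, and neighbouring or overlapping motifs merge into 1 run of capitals.
HIST1H2BK, chr6:27146806-27147105, minus strand: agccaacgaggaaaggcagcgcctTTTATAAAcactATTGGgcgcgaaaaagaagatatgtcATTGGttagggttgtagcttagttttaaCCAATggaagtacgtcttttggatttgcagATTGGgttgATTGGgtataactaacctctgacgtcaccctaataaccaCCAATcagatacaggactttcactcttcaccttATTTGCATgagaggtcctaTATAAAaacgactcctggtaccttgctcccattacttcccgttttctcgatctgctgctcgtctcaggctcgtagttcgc
HIST2H2BE, chr1:149886633-149886932, minus strand: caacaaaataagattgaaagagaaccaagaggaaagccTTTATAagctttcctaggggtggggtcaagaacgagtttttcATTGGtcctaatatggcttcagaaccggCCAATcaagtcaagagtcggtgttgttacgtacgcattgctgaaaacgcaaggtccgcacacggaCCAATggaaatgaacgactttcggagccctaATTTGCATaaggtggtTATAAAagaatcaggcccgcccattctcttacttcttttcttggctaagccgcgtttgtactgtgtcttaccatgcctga
HIST1H3D, chr6:26197237-26197536, minus strand: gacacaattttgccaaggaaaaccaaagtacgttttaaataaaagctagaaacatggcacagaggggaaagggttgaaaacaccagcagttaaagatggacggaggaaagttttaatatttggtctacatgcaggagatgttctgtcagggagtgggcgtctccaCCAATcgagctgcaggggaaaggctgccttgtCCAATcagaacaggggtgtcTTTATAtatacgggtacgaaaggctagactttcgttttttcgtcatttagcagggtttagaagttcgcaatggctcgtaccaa
HIST1H3D, chr6:26199244-26199543, minus strand: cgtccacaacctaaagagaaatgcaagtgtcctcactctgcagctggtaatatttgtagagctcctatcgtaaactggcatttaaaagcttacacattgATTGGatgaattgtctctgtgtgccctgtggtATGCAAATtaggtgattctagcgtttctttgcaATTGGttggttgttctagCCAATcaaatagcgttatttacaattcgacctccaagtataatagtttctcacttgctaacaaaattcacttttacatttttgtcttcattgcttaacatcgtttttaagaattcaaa
HIST1H2BK and HIST2H2BE each hold an octamer with a TATAAA a few bases downstream. HIST1H3D has 2 annotated starts. Its nearer window holds CCAAT and, on the other strand, TATAAA, without an octamer, and its farther window holds an octamer and CCAAT without TATAAA. The farther window has the same coordinates and letters as the promoter window of HIST1H2AD, an H2A gene. Over the 65 windows of the 61 members that have one, the octamer stood in 33.8% against 1.77% of all 35116 promoter windows. It was found in 11 of 16 H2A and 10 of 15 H2B windows, in 1 of 15 H3 windows and in none of the 6 H1 and 13 H4 windows. The H3 window with an octamer is the farther HIST1H3D window, which is also counted as an H2A window under HIST1H2AD. Some H2A and H2B genes have overlapping windows on opposite strands, and 1 octamer then counts in both classes. This holds for HIST1H2AA with HIST1H2BA, HIST1H2AG with HIST1H2BJ, HIST1H2AJ with HIST1H2BM, HIST1H2AM with HIST1H2BO, and HIST2H2AC with HIST2H2BE. HIST1H2BK enters with 2 overlapping windows. The windows with an octamer are therefore not all separate sites. TATAAA stood in 67.7% of the member windows and 11.5% of all windows, and CCAAT in 84.6% and 34.6%. The heat shock element, searched as 3 alternating blocks of 3 bases, was in 0 of the 65 windows, against 0.49% of all windows. With so rare a motif and so few windows, finding 0 does not set the members apart from other genes. A match describes these letters and does not show that a factor was bound.

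The deposited table gives estimated counts, with totals of 86000253 to 108074289 units per library. Low values came in steps of about 4 units, so that 1 sequenced fragment was worth about 4 units and the libraries held about 21500063 to 27018572 fragments. Levels are given as CPM, deposited counts scaled to a common total with TMM factors. A count of 0 allows up to 3 fragments, or 12 units, which is 0.108 to 0.138 CPM depending on the library and covers counting error only. All 10 fibroblast markers were present, with mean levels of 33.0 to 11467 CPM. Markers of epithelial cells averaged at most 0.187 CPM, and CD3E and MS4A1 of lymphocytes were at 0 in every library. CD68, a macrophage marker, averaged 128 CPM in TNF plus LED and 116 CPM in TNF libraries. Of the endothelial markers, CDH5 was at 0 in every library and PECAM1 reached at most 0.117 CPM. TEK averaged 63.1 CPM in TNF plus LED and 97.4 CPM in TNF libraries. KDR averaged 8.21 CPM in TNF plus LED and 6.27 CPM in TNF libraries, and VWF averaged 1.64 CPM in TNF plus LED and 0.638 CPM in TNF libraries. The part of these markers in the results was not tested. TNF plus LED replicate 6 and TNF replicate 8 stood apart from their groups: chi-square per degree of freedom between libraries of a group was 76.9 to 136 in the pairs that hold one of them, and 27.9 and 28.0 in the other pairs.

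Clustered histone transcripts were scarce, and a few genes supplied most of them. The 71 members together made 202, 267 and 191 CPM in TNF plus LED replicates 4, 6 and 10, against 143, 140 and 156 CPM in TNF replicates 2, 8 and 14. The groups did not overlap, and the mean sums of 220 ± 41.0 and 146 ± 8.62 CPM (SD, n = 3 each) stood in a ratio of 1.51. Without TNF plus LED replicate 6, the highest library, the ratio was 1.35. The log2 ratio of the sums was 0.59 with all libraries and 0.40 without both replicates that stood apart. HIST1H2BK, HIST2H2AA3, HIST2H2BE and HIST1H2AC took 73.3% to 81.3% of the summed level in each library. Without HIST1H2BK the other 70 members summed to a ratio of 1.37. The 67 members outside those 4 summed to 42.1, 57.1 and 35.7 CPM in TNF plus LED libraries and 34.1, 37.2 and 35.0 CPM in TNF libraries. The groups overlapped, and the ratio of 1.27 was 1.10 without TNF plus LED replicate 6. In bulk RNA, a change in the share of cells that make these transcripts and a change in their RNA per cell cannot be told apart.

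**Figure D1:**
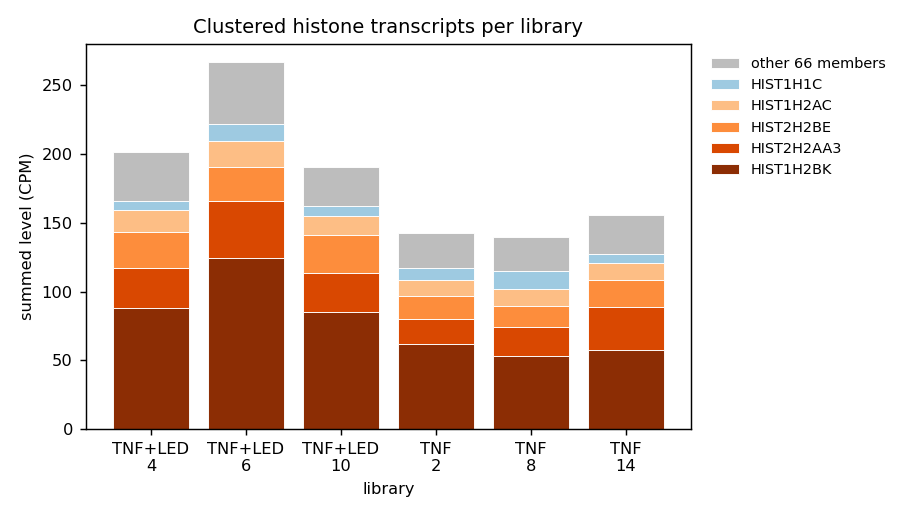
Summed level of the 71 clustered histone genes in each library, in CPM, stacked by gene with the 66 less abundant members in grey. The 3 TNF plus LED libraries reach 191 to 267 CPM and the 3 TNF libraries 140 to 156 CPM, and HIST1H2BK is the largest block in each.

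Of the 71 members, 5 were at 0 in every library (HIST1H1A, HIST1H2AA, HIST1H2BA, HIST1H4B and HIST1H4G) and 23, these included, never rose above 12 units. Several replication-dependent genes stayed close to that floor. HIST1H4C had 4, 6 and 8 units in TNF plus LED libraries 4, 6 and 10, against 17, 0 and 0 units in TNF libraries 2, 8 and 14. HIST1H3B had 8, 4 and 0 units in the TNF plus LED libraries and 8, 13 and 8 units in the TNF libraries. HIST1H1B stayed at or below 37 units and HIST1H1D at or below 9. These genes were chosen for mention after their values were seen. In the same libraries the 42 genes of a list of S phase factors averaged from 5.88 to 165 CPM each, so that transcripts of replicating cells were measured while these histone messengers were not detectable above the floor in most libraries. The cause was not tested.

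The 7 members known to make polyadenylated transcripts as well (HIST1H1C, HIST1H2AC, HIST1H2BC, HIST1H2BD, HIST1H2BJ, HIST1H2BK and HIST2H2BE) supplied 67.4% to 74.3% of the summed level. They summed to 145, 189 and 142 CPM in TNF plus LED libraries 4, 6 and 10, against 106, 99.5 and 105 CPM in TNF libraries 2, 8 and 14. Members with an annotated transcript ending in a polyadenylation signal were also the more abundant ones: the 23 of them had a median of 0.587 CPM and 9 averaged at least 1 CPM, against a median of 0.0893 CPM and 4 of 48 among the rest. This is a description of the annotation, since a gene annotated as coding sequence alone offers the counting fewer bases. HIST1H2BK belongs to the members without an annotated stem-loop or signal and is still the highest in CPM.

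Comparison of levels between genes needs their length, and the order changed with the length used. Per kilobase of GENCODE 29 exons the order was HIST1H2BK at 206 CPM per kb, HIST2H2AA3 at 51.5, HIST1H1C at 14.0, HIST2H2BE at 9.87 and HIST1H2AC at 8.58 CPM per kb. Per kilobase of the RefSeq gene span, introns included, HIST2H2AA3 led with 53.0 CPM per kb, followed by HIST1H2AC at 27.6, HIST1H1C at 12.3, HIST2H2BE at 9.73 and HIST1H2BK at 9.16 CPM per kb. HIST1H2BK has 381 annotated bases in GENCODE 29 and a span of 8566 bases in RefSeq, so its rank is not settled by these files. The transcripts that the authors counted for it are not stated in the labels.

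Of the 71 members, 40 passed the filter on low counts (2 H1, 12 H2A, 11 H2B, 8 H3 and 7 H4). The filter worked on deposited units, about 4 to a fragment, and 25 members passed it with counts divided by 4. The comparison of TNF plus LED with TNF called 1 of the 40. HIST1H3D was called higher, against a background of 2.44% of the 13794 genes tested that were called higher, and 0 were called lower, against 2.73% (5.17% in either direction). A single call among 40 genes is near these shares. At an unadjusted p under 0.05 in edgeR, 8 members were higher, against 10.9% of all genes, and 0 were lower, against 11.8%. DESeq2 called 5 members higher (HIST1H2BK, HIST1H3D, HIST1H4H, HIST2H2BE and HIST2H2BF) and 0 lower, with 6.34% of all genes called higher. The fold change was positive for 27 members and negative for 13, with a median log2 fold change of 0.35, while the median over all genes tested was 0.01. In 10 members every TNF plus LED library was above every TNF library, against 16.2% of all genes, and in 3 every one was below, also against 16.2%. Together these are 13 of 40 members without overlap, against 32.4% of all genes, again near the background. The median moved to 0.12 without TNF plus LED replicate 6 and to 0.20 without both that library and TNF replicate 8. Among the 13 members that averaged at least 1 CPM, 10 had a positive fold change, with a median of 0.50.

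**Figure D2:**
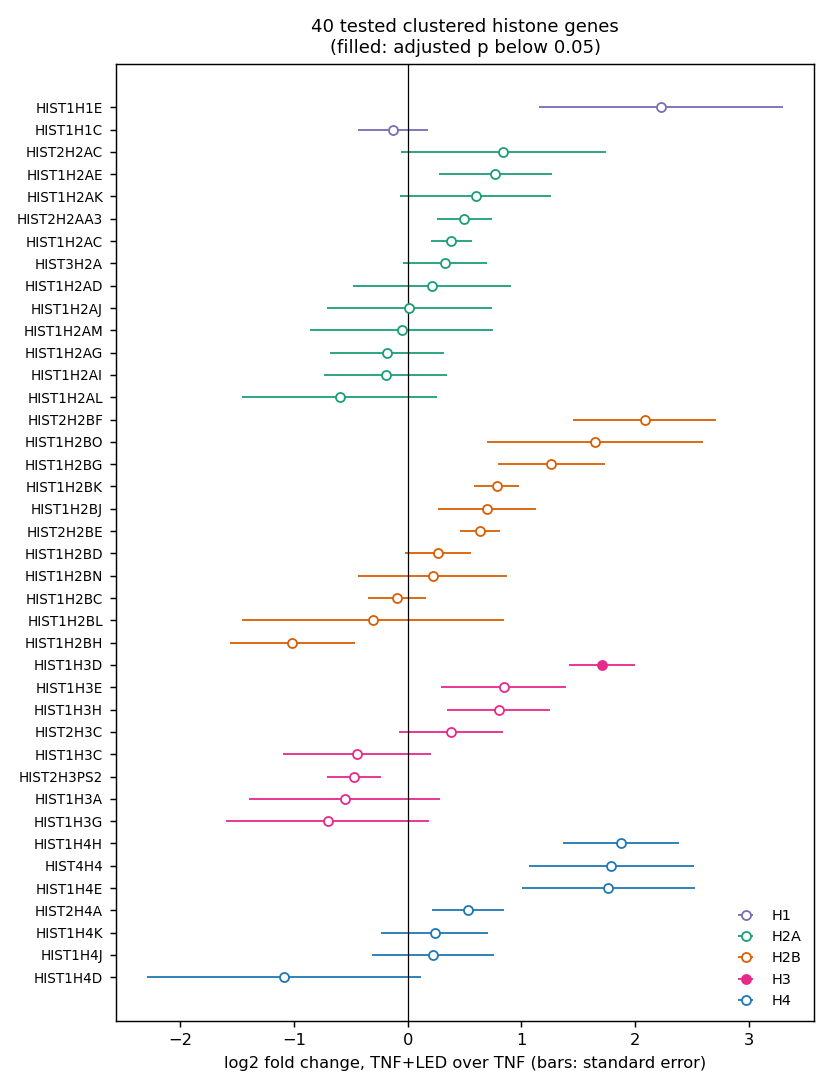
Log2 fold change of TNF plus LED over TNF for the 40 tested clustered histone genes, ordered within the classes H1, H2A, H2B, H3 and H4, with bars for the standard error. HIST1H3D, at 1.71, is the only filled point and the only member with an adjusted p below 0.05, while most H2B and H4 points lie to the right of 0.

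H3, whose tail carries most of the well-known histone marks, held the called gene. HIST1H3D encodes the replication-dependent form H3.1. Its level was 5.04, 5.32 and 3.04 CPM in TNF plus LED replicates 4, 6 and 10, against 1.27, 1.49 and 1.34 CPM in TNF replicates 2, 8 and 14. All 3 TNF plus LED values lay above all 3 TNF values. The fold was 3.27, with a log2 fold change of 1.71 ± 0.29 (SE) and an adjusted p of 0.0172 from edgeR's quasi-likelihood test with Benjamini-Hochberg adjustment. The call was lost without TNF plus LED replicate 4 (adjusted p = 0.0785), TNF plus LED replicate 6 (0.0872) or TNF replicate 14 (0.0745), with log2 fold changes of 1.63, 1.56 and 1.69, and it held in the other 12 alternatives, whose adjusted p reached as low as 7.44e-06. In GENCODE 29, 100% of the 50-base stretches of HIST1H3D are also part of AL031777.3, a gene that overlaps it and HIST1H2AD, and its farther RefSeq start lies on the HIST1H2AD side. Counts on HIST1H3D can therefore not be assigned to it alone. HIST1H2AD, which shares 98.0% of its stretches, had 0.142, 0.517 and 0.280 CPM in TNF plus LED libraries and 0.395, 0.217 and 0.196 CPM in TNF libraries, and these overlapped.

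The other H3 genes were low. HIST2H3PS2, named as a pseudogene in this table's symbols, had 2.70, 2.09 and 2.55 CPM in TNF plus LED libraries and 3.32, 3.39 and 3.46 CPM in TNF libraries. Its groups did not overlap and TNF plus LED was the lower one, with a log2 fold change of -0.47 ± 0.24 and an adjusted p of 0.28 in edgeR, which misses the threshold. HIST1H3H had 0.859, 0.725 and 0.685 CPM in TNF plus LED libraries, all above the 0.520, 0.423 and 0.358 CPM of TNF libraries, with an adjusted p of 0.34 in edgeR. HIST2H3C, whose identical copy HIST2H3A was listed at 2 or 0 units in each library, had 0.746, 0.666 and 0.581 CPM in TNF plus LED libraries and 0.448, 0.620 and 0.461 CPM in TNF libraries. The remaining 4 tested H3 genes had log2 fold changes between -0.70 and 0.84, none of them called. Summed H3 levels were 10.5, 10.2 and 8.46 CPM in TNF plus LED libraries and 7.04, 7.19 and 6.60 CPM in TNF libraries, a ratio of 1.40 without overlap. Without HIST1H3D the other 14 H3 members summed to 5.45, 4.92 and 5.42 CPM in TNF plus LED libraries and 5.77, 5.71 and 5.26 CPM in TNF libraries, a ratio of 0.944 with overlap.

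H2B, which pairs with H2A in the outer dimers of the nucleosome, carried most of the histone signal. HIST1H2BK had 88.2, 124 and 85.1 CPM in TNF plus LED libraries 4, 6 and 10, against 62.3, 53.0 and 57.6 CPM in TNF libraries 2, 8 and 14. The groups did not overlap, and replicate 6 stood above the other 2 libraries of its group. The log2 fold change was 0.78 ± 0.20, with an adjusted p of 0.0516 in edgeR, just above the threshold of 0.05. It was called in 5 of 15 alternatives, over which the adjusted p ran between 0.00419 and 0.156. In GENCODE 29, 74.1% of its 50-base stretches recur in other transcripts, most of which are histone genes.

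HIST2H2BE encodes an H2B protein from the HIST2 cluster and has an annotated transcript that runs 1729 bases past the stem-loop. Its level was 26.6, 25.0 and 27.4 CPM in TNF plus LED libraries, against 16.3, 14.9 and 19.7 CPM in TNF libraries. The 3 TNF plus LED values were close to each other and all higher than in TNF libraries. The log2 fold change was 0.63 ± 0.17, the adjusted p was 0.0697 in edgeR, and the range of adjusted p over the alternatives was 0.0148 to 0.211, with a call in 2. Unlike HIST1H2BK, its value was barely moved by replicate 6, without which it was 0.67.

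The H2B genes with lower levels spread to both sides. HIST2H2BF had 0.670, 1.03 and 0.570 CPM in TNF plus LED libraries, against 0.305, 0.0984 and 0.127 CPM in TNF libraries, of which the last 2 are under the floor. The groups did not overlap, with a log2 fold change of 2.08 ± 0.63 and an adjusted p of 0.0882 in edgeR. Its exons overlap FCGR1A, an antibody receptor gene, so reads of the pair cannot be fully told apart. HIST1H2BG had 1.58, 1.74 and 0.633 CPM in TNF plus LED libraries, above the 0.493, 0.551 and 0.600 CPM of TNF libraries, with replicate 10 hardly above them. Its log2 fold change was 1.26 ± 0.47, with an adjusted p of 0.147 in edgeR.

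HIST1H2BH lay the other way. It had 0.311, 0.378 and 0.176 CPM in TNF plus LED libraries, all below the 0.592, 0.689 and 0.473 CPM of TNF libraries, with a log2 fold change of -1.02 ± 0.55 and an adjusted p of 0.312 in edgeR. HIST1H2BD had 4.08, 3.71 and 4.54 CPM in TNF plus LED libraries and 3.67, 2.19 and 4.41 CPM in TNF libraries. HIST1H2BC had 2.37, 2.44 and 2.13 CPM in TNF plus LED libraries and 2.53, 2.11 and 2.77 CPM in TNF libraries. HIST1H2BC and HIST1H2BD overlapped between the groups, and so did HIST1H2BJ, with 1.0, 2.82 and 1.55 CPM in TNF plus LED libraries and 0.852, 1.43 and 1.03 CPM in TNF libraries. HIST1H2BO had 0.0755, 0.288 and 0.187 CPM in TNF plus LED libraries and 0.117, 0.0295 and 0.0231 CPM in TNF libraries, around the floor. The other 2 tested H2B genes, HIST1H2BN and HIST1H2BL, had log2 fold changes of 0.22 and -0.30. Summed H2B levels were 125, 163 and 123 CPM in TNF plus LED libraries, against 87.6, 75.6 and 87.6 CPM in TNF libraries, a ratio of 1.64 without overlap.

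**Figure D3:**
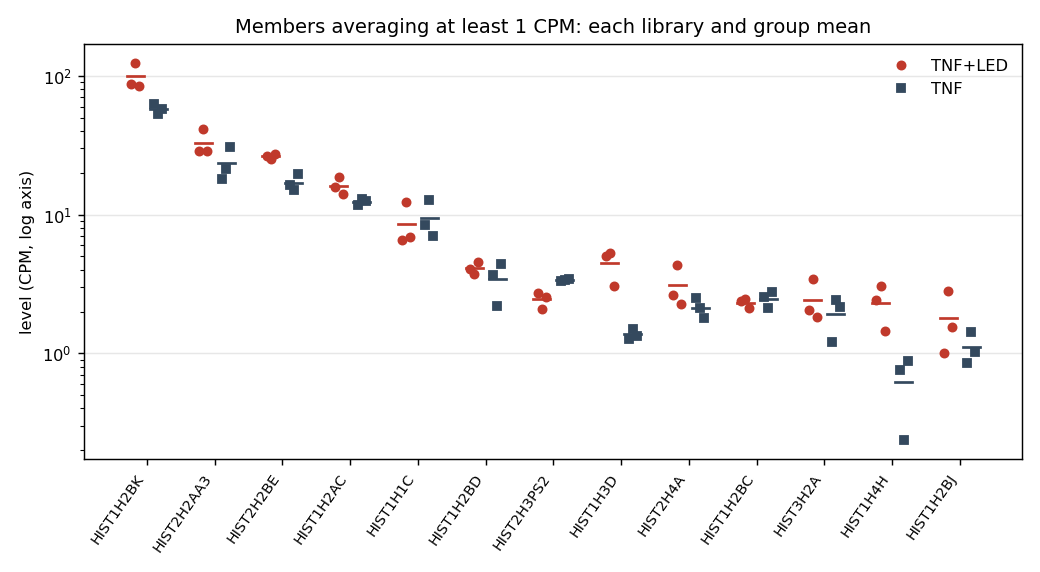
Level of the 13 clustered histone genes that average at least 1 CPM, on a log axis, with 1 point per library, TNF plus LED as red circles left of TNF as dark squares, and a line at each group mean. HIST1H3D, HIST1H2BK, HIST2H2BE, HIST1H4H and HIST1H2AC show no overlap with TNF plus LED higher, and HIST2H3PS2 shows none with TNF plus LED lower.

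No H2A gene was called. HIST2H2AA3, which encodes an H2A protein from a duplicated stretch, had 29.0, 41.5 and 28.8 CPM in TNF plus LED libraries, against 18.1, 21.3 and 30.9 CPM in TNF libraries. TNF replicate 14 was above 2 of the 3 TNF plus LED libraries, so the groups overlapped, and the log2 fold change was 0.50 ± 0.24 with an adjusted p of 0.264 in edgeR. Its copy HIST2H2AA4 was listed at 2 units in every library. In GENCODE 29, 100% of the 50-base stretches of HIST2H2AA3 recur among 3 other genes, so the level cannot be assigned to HIST2H2AA3 alone. HIST1H2AC, an H2A gene with an annotated transcript reaching 1128 bases past the stem-loop, had 15.9, 18.6 and 14.0 CPM in TNF plus LED libraries, against 11.8, 13.1 and 12.5 CPM in TNF libraries. The groups did not overlap, but the log2 fold change of 0.38 ± 0.18 had an adjusted p of 0.25 in edgeR.

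HIST3H2A had 2.05, 3.42 and 1.82 CPM in TNF plus LED libraries, which overlapped the 1.20, 2.43 and 2.17 CPM of TNF libraries. HIST1H2AG had 1.23, 0.537 and 0.508 CPM in TNF plus LED libraries, which overlapped the 0.628, 0.817 and 1.14 CPM of TNF libraries. HIST1H2AE had 0.727, 1.32 and 0.539 CPM in TNF plus LED libraries, against 0.538, 0.423 and 0.554 CPM in TNF libraries. The 7 other tested H2A genes averaged below 1 CPM and had log2 fold changes between -0.60 and 0.84. Of the 12 tested, 8 had a positive and 4 a negative fold change, and HIST1H2AC was the 1 whose groups did not overlap. Summed H2A levels were 51.3, 68.4 and 47.5 CPM in TNF plus LED libraries and 34.3, 39.7 and 50.1 CPM in TNF libraries, a ratio of 1.35 with overlap.

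H4, the partner of H3 in the core of the nucleosome, was low throughout, and nearly all of its genes encode the same protein. HIST2H4A, the highest, had 2.63, 4.36 and 2.26 CPM in TNF plus LED libraries, which overlapped the 2.50, 2.11 and 1.80 CPM of TNF libraries. Its copy HIST2H4B was listed at 2 units in every library, and the exons of HIST2H4A overlap those of HIST2H3C. HIST1H4H, with an annotated transcript reaching 1655 bases past the stem-loop, had 2.41, 3.03 and 1.44 CPM in TNF plus LED libraries, against 0.762, 0.236 and 0.877 CPM in TNF libraries. The groups did not overlap, with TNF replicate 8 the lowest, and the log2 fold change of 1.88 ± 0.51 had an adjusted p of 0.0662 in edgeR. Over the alternatives its adjusted p ran between 0.00449 and 0.237, with 2 calls, and no 50-base stretch of it recurs in another gene.

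HIST4H4, the single HIST4 member, had 0.274, 0.288 and 0.187 CPM in TNF plus LED libraries, above the 0.0538, 0.0689 and 0.0923 CPM of TNF libraries, all of which were under the floor. Its log2 fold change was 1.79 ± 0.72, with an adjusted p of 0.18 in edgeR. HIST1H4E had 0.566, 1.27 and 0.280 CPM in TNF plus LED libraries, which overlapped the 0.287, 0.0689 and 0.265 CPM of TNF libraries. HIST1H4K, which shares all of its 50-base stretches with another gene, had 0.755, 0.914 and 0.436 CPM in TNF plus LED libraries, which overlapped the 0.556, 0.640 and 0.588 CPM of TNF libraries. The other 2 tested H4 genes, HIST1H4J and HIST1H4D, had log2 fold changes of 0.22 and -1.09, neither of them called. HIST1H4I did not pass the filter, with 81 units in TNF plus LED replicate 6 and at most 8 in any other library; it was chosen for mention after its values were seen. Summed H4 levels were 7.36, 11.7 and 5.01 CPM in TNF plus LED libraries, against 4.91, 4.02 and 4.23 CPM in TNF libraries. The ratio was 1.83 without overlap, or 0.87 on the log2 scale, and 0.44 on that scale without TNF plus LED replicate 6 and TNF replicate 8.

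H1, the linker histone that binds where DNA enters and leaves the nucleosome, was the class whose sum was not higher. HIST1H1C, which encodes H1.2, had 6.56, 12.3 and 6.95 CPM in TNF plus LED libraries, which overlapped the 8.45, 12.8 and 7.01 CPM of TNF libraries. Replicate 6 of the TNF plus LED group and replicate 8 of the TNF group were the high ones, and the log2 fold change was -0.13 ± 0.31. HIST1H1E, which encodes H1.4, had 0.444, 0.199 and 0.207 CPM in TNF plus LED libraries, against 0.0448, 0 and 0.138 CPM in TNF libraries. Its groups did not overlap, but the TNF values were at or below the floor, and the log2 fold change of 2.23 ± 1.07 had an adjusted p of 0.256 in edgeR. Summed H1 levels were 7.15, 13.0 and 7.24 CPM in TNF plus LED libraries and 8.65, 13.0 and 7.24 CPM in TNF libraries, a ratio of 0.948.

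The genes outside the clusters that encode variant histones are mostly expressed through the cell cycle and make polyadenylated mRNA. Of 12 such genes 11 were tested, and 3 fell while 0 rose, against 2.73% lower and 2.44% higher among all genes tested. Their median log2 fold change was -0.49. H1F0, which encodes the linker variant H1.0, had 36.6, 23.9 and 33.0 CPM in TNF plus LED libraries, against 53.9, 123 and 84.2 CPM in TNF libraries, with a log2 fold change of -1.48 and an adjusted p of 0.0313 in edgeR. H1FX, another linker variant, had 22.8, 16.1 and 18.2 CPM in TNF plus LED libraries, against 35.6, 91.0 and 45.9 CPM in TNF libraries, with a log2 fold change of -1.59. H2AFY2, which encodes a macroH2A, was the third, at a log2 fold change of -0.76. In each of the 3 the groups did not overlap. No variant was called without TNF plus LED replicate 4, 6 or 10 or TNF replicate 14, and 1 was called without TNF replicate 8. H2AFY2 was also not called without TNF replicate 2, at an adjusted p of 0.0555 in edgeR.

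Of 29 tested genes of histone transcription and 3′ processing 1 rose and 1 fell, with a median log2 fold change of -0.02. Of all genes tested, 2.44% were called higher and 2.73% lower in TNF plus LED, so these counts were near the background. ZNF473, a zinc finger protein of the U7 particle, had 23.8, 24.4 and 16.2 CPM in TNF plus LED libraries, against 11.6, 11.0 and 11.0 CPM in TNF libraries. It rose by a log2 fold change of 0.94 with an adjusted p of 0.0351 in edgeR. CCNE2, a cyclin E whose kinase activates the histone gene coactivator NPAT, had 6.57, 9.70 and 10.3 CPM in TNF plus LED libraries and 21.7, 14.0 and 20.7 CPM in TNF libraries, and fell by 1.08 on the log2 scale. SLBP, the stem-loop binding protein, had 105, 95.4 and 99.2 CPM in TNF plus LED libraries, which overlapped the 84.1, 108 and 94.2 CPM of TNF libraries. NPAT and CASP8AP2, both needed for histone gene transcription, had log2 fold changes of -0.22 and -0.14. LSM11, a ring protein of the U7 particle, had non-overlapping groups, lower in TNF plus LED, with a log2 fold change of -0.77 and an adjusted p of 0.0737 in edgeR. In edgeR the ZNF473 call was lost without TNF plus LED replicate 4 or 6 or any single TNF replicate, at adjusted p of 0.0578 to 0.134. The CCNE2 call was lost without any single TNF plus LED replicate or TNF replicate 2 or 14, at adjusted p of 0.0712 to 0.15 in edgeR.

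Histone chaperones, which carry and deposit histones, showed 1 gene higher and 7 lower among 29 tested, against 2.44% higher and 2.73% lower among all genes. Their median log2 fold change was -0.15. The higher one, SPTY2D1, named here after its value was seen, binds H3 and H4 and had a log2 fold change of 0.86. The called genes with the lowest p were lower in TNF plus LED: ASF1B, a chaperone of new H3 and H4, at -1.62; NASP, which holds the soluble H3 and H4 pool, at -0.85; CHAF1B, a subunit of chromatin assembly factor CAF-1, at -1.37; and TONSL, a reader of newly made H4, at -1.01. NASP had 60.7, 54.3 and 57.3 CPM in TNF plus LED libraries, against 104, 103 and 103 CPM in TNF libraries. Of the 42 S phase genes 26 fell and 0 rose, where 2.73% of all genes were called lower and 2.44% higher. The median log2 fold change of the list was -1.06. PRIM1, a primase subunit, had 3.92, 3.12 and 3.87 CPM in TNF plus LED libraries, against 10.3, 11.3 and 10.7 CPM in TNF libraries. It fell by 1.57 on the log2 scale, and POLA2 by 1.72, POLD1 by 1.29 and CDC45 by 1.24. The count of lower chaperones was 0, 0 and 1 without TNF plus LED replicates 4, 6 and 10, and 4 and 1 without TNF replicates 8 and 14. The S phase count was 1, 1 and 4 without TNF plus LED replicates 4, 6 and 10, and 3 without TNF replicate 14. CCNE2 is also on the S phase list, and MCM2 is on both the chaperone and the S phase list.

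**Figure D4:**
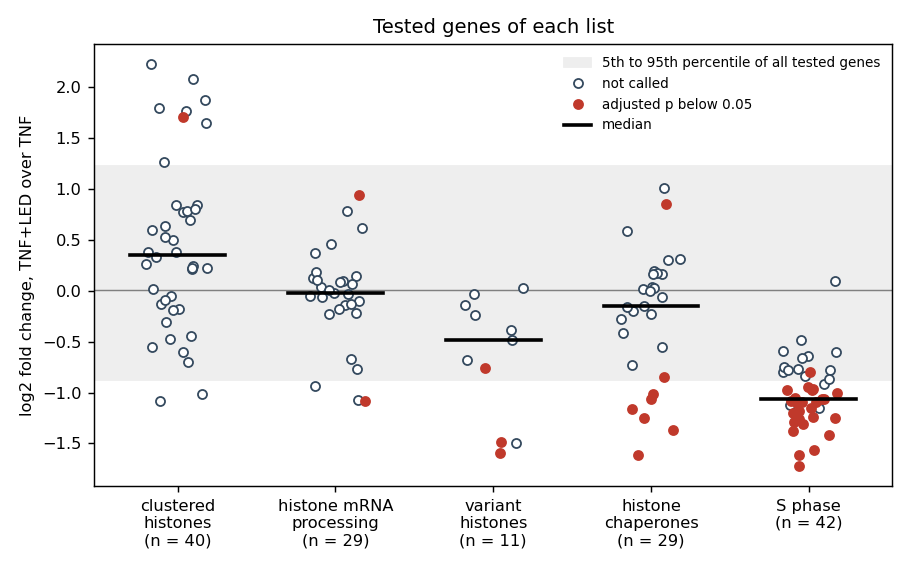
Log2 fold change of TNF plus LED over TNF for the tested genes of 5 groups, with called genes in red, a black line at each median and a grey band for the middle of all tested genes. The clustered histones have a median of 0.35 and the S phase genes one of -1.06, with no S phase gene called higher.

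The histone and S phase genes were also set side by side within each library, as the median deviation of a list from its mean over the 6 libraries on the log2(CPM + 0.5) scale. The 40 tested histone members lay at 0.07, 0.31 and -0.03 in TNF plus LED libraries 4, 6 and 10, against -0.10, -0.15 and -0.11 in TNF libraries 2, 8 and 14. The 13 members that averaged at least 1 CPM lay at 0.08, 0.59 and 0.08 in the TNF plus LED libraries and at -0.27, -0.21 and -0.18 in the TNF libraries. The 42 S phase genes lay at -0.40, -0.65 and -0.35 in the TNF plus LED libraries and at 0.31, 0.82 and 0.35 in the TNF libraries. TNF plus LED replicate 6 was thus the highest library for the 40 histone members and the lowest for S phase genes, and TNF replicate 8 was the lowest for the 40 histone members and the highest for S phase genes. Without both, 3 of 39 tested members were called higher, HIST1H3D, HIST1H2BK and HIST2H2BE, and 0 lower. Of all genes tested in that fit, 5.51% were called higher. The part of the S phase difference in the histone result was not tested.

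**Figure D5:**
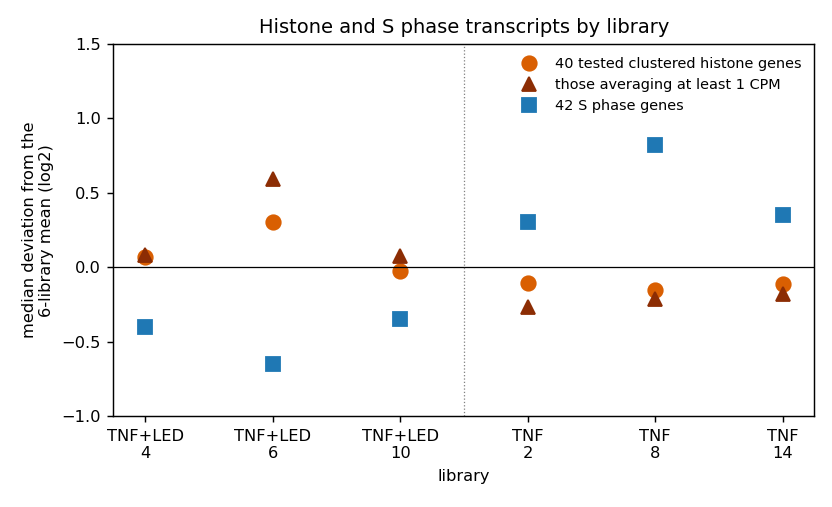
Median deviation of 3 gene groups from their 6-library mean, in log2 units, for each TNF plus LED library (left) and TNF library (right). Histone medians lie at or above -0.03 in the TNF plus LED libraries and at or below -0.10 in the TNF libraries, while the S phase medians lie below 0 in the TNF plus LED libraries and above 0 in the TNF libraries.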

How the data were processed

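The deposited table holds estimated counts per gene symbol as whole numbers, which entered the tests as deposited. Per the submitters' processing notes the tools included HISAT2, StringTie, DESeq2, limma and bcl2fastq 2.0, and the build named is mouse mm10, although the symbols are human. A human build and the strandedness of counting are not given in the sources used here. Members and lists alike were chosen with earlier results of these data known.

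TNF plus LED (n = 3) was compared with TNF (n = 3) with edgeR 4.0.16 (R 4.3.3), by its two-sided quasi-likelihood test (filterByExpr, TMM, robust dispersions), with Benjamini-Hochberg adjustment over all 13794 genes tested and a threshold of 0.05. Values were given by rule for called members, the 4 highest tested members of each class, the 6 further members with the lowest p, and the 7 members with known polyadenylated forms, and from other lists for up to 4 called genes with the lowest p, plus SLBP, NPAT, LSM11 and CASP8AP2. Members named outside this rule, such as copies, overlapping genes and the remaining tested genes of a class, were named after their values were seen. DESeq2 1.42.0 and limma-voom (limma 3.58.1), other filters and scalings, counts divided by 4, a length-trend correction and libraries left out served as alternatives. The fit was tested on simulated counts. Chi-square per degree of freedom between libraries of a group was 27.9 to 136, so none was a copy. Annotation came from GENCODE 29, which matched all 71 members, and RefSeq, which matched 66 to a single gene. Genes sharing at least 50% of their 50-base stretches with others (17 members, 13 of the 40 tested) have uncertain counts.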

Additional observations from a re-analysis of the deposited data

How the results depend on the processing

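No paired analysis was possible because the groups share no replicate number. The main fit called 1 of 40 clustered histone genes higher, against 2.44% of all genes. Without a filter 2 of 66 were called (2.31% of all genes), and at 1 CPM in 3 libraries 2 of 13 (2.71%). DESeq2 called 5 of 40 (6.34%), and counts divided by 4 gave 4 of 25 (3.02%). Without both TNF plus LED replicate 6 and TNF replicate 8 it was 3 of 39 (5.51%). At an adjusted p below 0.1 it was 5 of 40. With 1 library left out 0 to 1 was called, against 0.423% to 2.24% of all genes. No alternative called a member lower. Over all genes, 336 higher and 377 lower became 874 and 879 with DESeq2, 763 and 906 without both libraries, 695 and 776 at an adjusted p below 0.1, and 59 to 314 and 21 to 423 with 1 library left out.

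For the processing list (1 higher, 1 lower), the higher count was 2 with DESeq2 and at 0.1, 4 without both libraries and 0 to 1 with 1 left out, and the lower count was 3 without a filter, 4 with DESeq2, 2 with counts divided by 4, 4 without both libraries, 4 at 0.1 and 0 to 1 with 1 left out. The 3 lower variants became 0 to 3 with 1 left out. For chaperones, the 1 higher gene became 0 with library totals only, 3 with DESeq2, 2 without both libraries, 2 at 0.1 and 0 to 1 with 1 left out, and the 7 lower genes became 0 to 7. The 26 lower S phase genes became 34 without both libraries and 1 to 27 with 1 left out.

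Among single genes the log2 fold change turned round only with a library left out. Over these fits it ran between -0.48 and 0.15 for HIST1H1C, -0.71 and 0.069 for HIST1H2AG, -0.0003 and 0.53 for HIST3H2A, -0.47 and 0.059 for CASP8AP2, and -0.035 and 0.20 for SLBP. The cause was not tested. With 3 libraries a group and most members under 1 CPM, small changes in the low members were not detectable at this depth.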
